A study of Glycine max with 12 samples.

Results

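The change from the cotyledon stage to early maturation was followed in whole seeds of soybean (Glycine max, cultivar Williams 82) by setting the early-maturation library against the cotyledon-stage library for every gene model. These were 2 of the 12 messenger RNA libraries of a series that runs from young seeds to the dry seed, the seedling and organs of the mature plant, with 1 library for each. All plants were untreated and grown in a greenhouse. Seeds at early maturation were 6 to 7 mm long and seeds at the cotyledon stage 3 to 3.9 mm, and the age of the seeds is not given in the labels. The later libraries used here came from mid-maturation seeds (1.1 to 1.3 cm), late-maturation seeds (1.2 to 1.5 cm) and dry seeds. The earlier ones came from globular-stage (0.8 to 1.1 mm) and heart-stage (2 to 2.5 mm) seeds. The other organs were seedlings 6 days after imbibition, leaf, root, stem and unopened floral buds. Of the 66210 gene models in the count tables, 47904 had a count in the early-maturation or the cotyledon library, and the 32326 with a mean of at least 1 CPM over both are called measured. CPM is the number of counts in each M (mega) counts of a library after TMM scaling, which adjusts for a few abundant genes taking up the reads. With 1 library for each stage there is no replicate check, no spread and no p-value in any comparison.

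In a soybean seed the cotyledons of the embryo are the storage organ. After the embryo has formed its organs, cell division gives way to expansion, and the cotyledon cells fill protein storage vacuoles with globulins and albumins and oil bodies with triacylglycerol, fed by sugar unloaded from the seed coat. Transcription factors of the LEC1, ABI3 and FUS3 families are known for directing this maturation program, and the seed later dries and becomes quiescent. Whole seeds hold the embryo, the seed coat and what remains of the endosperm, so in every result below fewer cells of a type and less RNA per cell cannot be told apart.

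The early-maturation library held 38.2 M counts and the cotyledon library 25.2 M. In these, 3 counts were worth 0.0850 CPM at early maturation and 0.106 CPM at the cotyledon stage. The 9 seed protein genes listed below lay between 438 and 10681 CPM at early maturation. None exceeded 13.6 CPM in seedling, leaf, root, stem or floral bud. These genes are also part of the result and were listed with earlier results of these data known. Their levels thus do not check the labels of the 2 stages. A leaf gene, the vegetative storage protein VspA, stood at 14.6 CPM at early maturation against 2.36 CPM at the cotyledon stage, with 10184 CPM in leaf. The 6 genes often used as stable references had a median log2 ratio of 0.45, early maturation over cotyledon, and none was called. Among these, ELF1B, a translation elongation factor gene, was 3.00-fold higher (95% counting interval 2.86 to 3.15) and CONS4 had a ratio of 0.834 (0.786 to 0.886).

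At early maturation 617 genes were higher and 466 lower than at the cotyledon stage. A call needed a difference of at least 4-fold and at least 10 CPM in the higher library, with counts under 3 raised to 3. With plain CPM, without TMM factors, the balance turned, to 450 higher and 713 lower genes. The 617 higher genes are 1.91% and the 466 lower genes 1.44% of the measured genes, together 3.35%. The rises were the steeper. Their median was 6.65-fold, with quartiles of 4.89 and 14.3, and 50 genes were at least 100-fold higher. The falls had a median of 5.76-fold, with quartiles of 4.64 and 8.48, and 2 genes were at least 100-fold lower. The smallest called ratios were 2.01 on the log2 scale for a rise and -2.00 for a fall. Shutting off was seldom complete at this stage: the median lower gene still had 4.28 CPM at early maturation, against 25.9 CPM at the cotyledon stage, and 26 of the 466 were under 1 CPM. The higher genes had a median of 44.2 CPM at early maturation, against 5.01 CPM at the cotyledon stage, where 62 of the 617 were under 1 CPM and 5 had no count.

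The weight of the 2 sets in the messenger RNA was far apart. The 617 higher genes took 15.9% of all counts at early maturation, against 1.14% at the cotyledon stage. The 466 lower genes took 0.550% at early maturation, against 3.89%. Of the summed CPM gain over all genes, the 20 genes with the largest gains carried 26.5%, and 12 of those 20 are among the listed seed genes described below. The 20 genes with the largest losses carried 15.9% of the summed loss. Levels of 1000 CPM or more in the higher library were reached by 31 higher genes and by 4 lower genes.

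**Figure D1:**
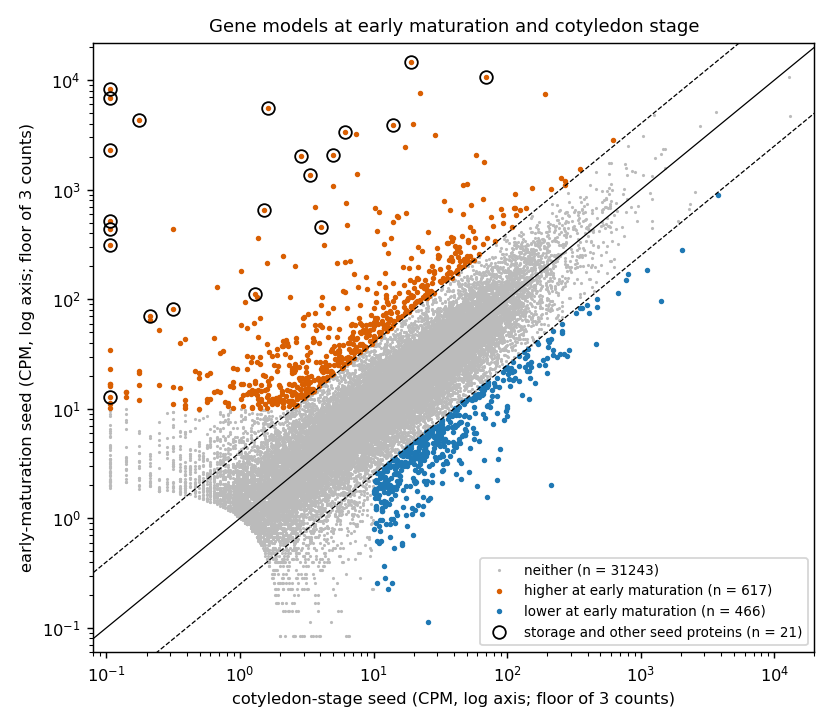
Each point is a measured gene model, with its CPM at early maturation (vertical) against the cotyledon stage (horizontal), both on log axes with counts under 3 drawn at 3. The solid line marks equal levels and the dashed lines 4-fold differences; the 617 higher genes reach much farther from the diagonal than the 466 lower genes, and the 21 circled storage and other seed protein genes lie at the upper left edge.

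Transcripts of seed storage proteins, which supply the seedling with nitrogen, were a part of this change. The storage list had 12 measured members, and all were called higher. Their median log2 ratio was 9.53, beside 0.01 over all measured genes. Together the 15 listed storage loci took 3.16% of the counts at early maturation, against 0.00308% at the cotyledon stage. The alpha-prime subunit gene of beta-conglycinin, the 7S globulin, took the most counts of the list, with 14616 CPM at early maturation against 19.1 CPM at the cotyledon stage, a rise of 767-fold (705 to 836). Its transcript was already well above the counting floor in the smaller seeds, with 540 counts.

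The glycinin genes, which encode the subunits of the 11S globulin, began from nearly nothing. Gy1 had 8383 CPM at early maturation against 0.0706 CPM at the cotyledon stage, where 2 counts were found, and the ratio was 118766 with an interval of 32878 to 980696. Gy2, its neighbour on chromosome 3, had 4345 CPM against 0.176 CPM, from 5 counts at the cotyledon stage, a ratio of 24624 (10552 to 75839). Gy3, Gy4 and Gy5 had no count at the cotyledon stage, and 12.9, 2315 and 514 CPM at early maturation. Set against 3 counts in the cotyledon library, the ratios were 122 for Gy3, 21866 for Gy4 and 4850 for Gy5. The lower limits of their counting intervals were 98.4, 17782 and 3944. All 5 genes were thus at or within 5 counts of absence at the cotyledon stage and above 10 CPM at early maturation. Gy1 and Gy2 are near-identical copies, so the division of their reads is uncertain.

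The 2S albumins, small sulfur-rich storage proteins, differed in the same way. The gene 2S-a had 1359 CPM at early maturation against 3.35 CPM at the cotyledon stage, 405-fold higher (331 to 501). The gene 2S-b had 312 CPM against 0.0706 CPM, with 2 counts at the cotyledon stage and a ratio of 4426 (1225 to 36548). Among the vicilin-like sucrose-binding proteins SBP1 reached 2050 CPM, 717-fold above its 2.86 CPM at the cotyledon stage (577 to 903), whereas SBP2 reached 112 CPM, 85.5-fold above 1.31 CPM (61.9 to 122). The basic 7S globulin gene BG7S stood at 69.8 CPM against 0.212 CPM, a rise of 330-fold (151 to 899). The genes of the beta subunit of beta-conglycinin were not among the risen genes: its 2 loci had 0.624 and 0.198 CPM at early maturation and no count at the cotyledon stage. A locus of the alpha subunit had 80.6 CPM at early maturation against 0.318 CPM, and another alpha locus had no count in either library. The alpha and the beta copies are near-identical within each kind, and reads may be divided or lost between copies.

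Transcripts of proteins that accumulate beside the storage globulins rose with the storage transcripts. The seed protein list had 9 members with counts, all called higher, and their median log2 ratio was 8.75. The group holds protease inhibitors, a lectin, lipoxygenases, the thiol protease-like protein P34 and the embryo urease. P34, a major soybean allergen, had 6808 CPM at early maturation and no count at the cotyledon stage. Its ratio was 64298 when set against 3 counts, and the lower limit of its counting interval was 52291. The Kunitz trypsin inhibitor gene KTI3 had 10681 CPM at early maturation against 70.0 CPM at the cotyledon stage, 153-fold higher (146 to 159.6), with 1983 counts already present at the cotyledon stage. KTI1, a related inhibitor, had 438 CPM against 0.0706 CPM, with 2 counts at the cotyledon stage and a ratio of 6200 (1716 to 51198). A Bowman-Birk inhibitor, which blocks trypsin and chymotrypsin, had 5556 CPM against 1.62 CPM, 3422-fold higher (2566 to 4675). The seed lectin LE1, which binds N-acetylgalactosamine, had 3875 CPM against 13.9 CPM, 279-fold higher (253 to 309). The embryo-specific urease Eu1 stood at 455 CPM against 4.02 CPM (113-fold, 94.2 to 137). Its ubiquitous counterpart Eu4 had 36.3 CPM against 26.9 CPM, a ratio of 1.35 (1.23 to 1.48), and was not called.

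The 3 seed lipoxygenases, enzymes that oxidise polyunsaturated fatty acids, rose by similar factors. LOX2 had 3345 CPM at early maturation against 6.07 CPM at the cotyledon stage, 551-fold higher (474 to 644). LOX1 had 655 CPM against 1.52 CPM, 431-fold higher (320.2 to 596). LOX3 had 2070 CPM against 4.94 CPM, 419-fold higher (355 to 498). A gene model directly next to LOX1, on the side away from LOX2, and one directly next to LOX3 went the other way. They were picked out after their values had been seen. The one beside LOX1 on chromosome 13 fell to 3.37 CPM at early maturation, against 66.9 CPM at the cotyledon stage, 19.8-fold lower (16.5 to 24.1). The one beside LOX3 on chromosome 15 fell to 184 CPM, against 1118 CPM, 6.08-fold lower (5.92 to 6.25). Each of these neighbours was far above its seed lipoxygenase in some other organ. The one beside LOX1 had 3567 CPM in seedling and 2092 CPM in root, where LOX1 had 1.03 and 0.0469 CPM. The one beside LOX3 had 924 CPM in seedling and 1827 CPM in floral bud, where LOX3 had 13.6 and 2.96 CPM. The count tables give no name for these gene models.

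**Figure D2:**
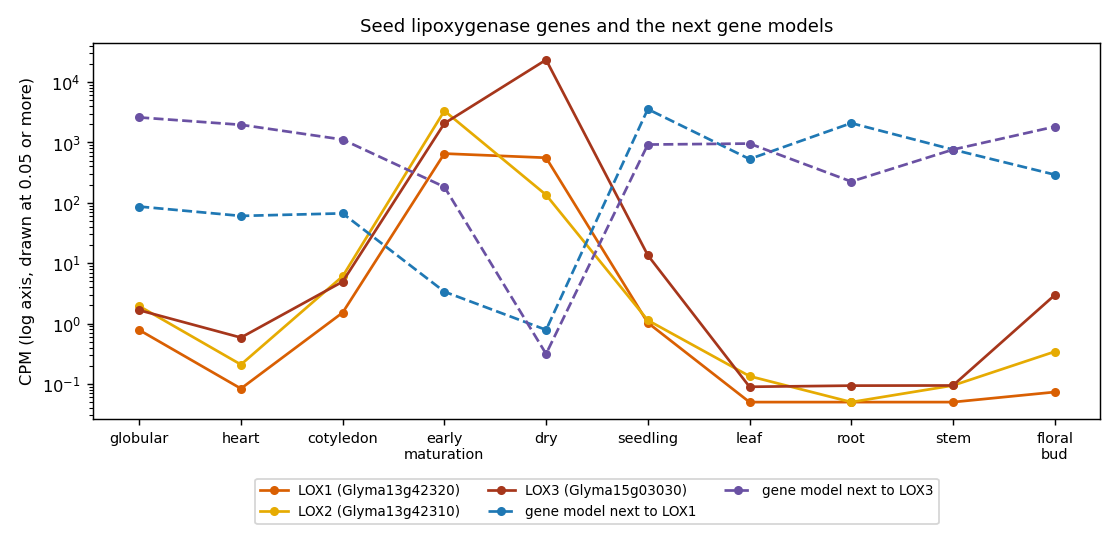
CPM (log axis, values under 0.05 drawn at 0.05) in the 10 libraries with counts. Solid lines are LOX1, LOX2 and LOX3, and dashed lines are the unnamed gene models next to LOX1 and LOX3. Solid and dashed lines cross between the cotyledon stage and early maturation, and cross back between dry seed and seedling.

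Genes for oil followed in part. Of the 15 members of the oil list, 5 were called higher and none lower, with a median log2 ratio of 1.24. The 5 were the seed-type desaturases FAD2-1A and FAD2-1B, which turn oleate into linoleate, the stearoyl desaturase SACPD-C, the acyltransferase DGAT1C, which completes triacylglycerol, and the P24 oleosin, which coats the oil body. FAD2-1B had 1075 CPM at early maturation against 4.94 CPM at the cotyledon stage, 218-fold higher (184 to 259). FAD2-1A had 129 CPM against 0.671 CPM, 193-fold higher (123 to 321). The oleosin gene had 698 CPM against 3.67 CPM, 190.2-fold higher (157 to 233). SACPD-C had 791 CPM against 34 CPM, 23.3-fold higher (21.8 to 24.8), and DGAT1C 16.5 CPM against 2.44 CPM, 6.77-fold higher (5.27 to 8.83).

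The other oil genes were present at both stages and differed by less than 4-fold. FAD3A, FAD3B and FAD3C, which make linolenate, had 53.7, 55.2 and 54.9 CPM at early maturation, against 15.0, 23.5 and 27.7 CPM at the cotyledon stage. SACPD-A and SACPD-B, the other stearoyl desaturases, had ratios of 2.37 (2.23 to 2.51) and 1.43 (1.37 to 1.50). The thioesterase gene FATB1a, which releases palmitate, stood at 65.1 CPM at early maturation against 67.0 CPM, a ratio of 0.973 with an interval of 0.915 to 1.03. DGAT1A and DGAT1B had 11.7 and 3.40 CPM against 6.78 and 4.31 CPM. Members of the stearoyl desaturase and DGAT1 families thus differed in their ratio between the same 2 libraries, from 1.43 to 23.3 and from 0.790 to 6.77, whereas the intervals of FAD2-1A and FAD2-1B overlapped.

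The regulators were already on in cotyledon-stage seeds and rose by much less than the storage genes. Of 10 regulator genes 3 were called higher and none lower, with a median log2 ratio of 1.44. Both homologs of LEC1, a subunit of a nuclear factor Y complex, were among them. LEC1-a had 285 CPM at early maturation against 43.0 CPM at the cotyledon stage, 6.63-fold higher (6.25 to 7.05), and LEC1-b had 457 CPM against 52.8 CPM, 8.66-fold higher (8.21 to 9.13). The homolog WRI1-b of WRINKLED1, an activator of fatty acid synthesis known from Arabidopsis, had 11.5 CPM against 2.51 CPM, 4.57-fold higher (3.54 to 5.97), and lost its call with plain CPM. WRI1-a had 44.2 CPM against 16.2 CPM, with a ratio of 2.72 (2.45 to 3.03). The ABI3 homologs, of the abscisic acid response, had ratios of 2.70 (2.59 to 2.81) and 2.94 (2.78 to 3.10), at 292 and 175 CPM against 108 and 59.6 CPM. The FUS3 homologs had 18.4 and 3.86 CPM at early maturation against 7.73 and 4.02 CPM. The factor gene bZIP123 stood at 36.4 CPM at early maturation against 47.3 CPM, a ratio of 0.770 (0.713 to 0.832).

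Of 5 genes for sugar and inositol, 3 were called higher and none lower, with a median log2 ratio of 2.19. SWEET10a and SWEET10b, sugar exporters of the seed coat, were both higher. SWEET10a had 74.7 CPM at early maturation against 3.64 CPM at the cotyledon stage, 20.5-fold (16.9 to 25.3), and SWEET10b 677 CPM against 138 CPM, 4.89-fold (4.73 to 5.06). A myo-inositol-phosphate synthase homolog, whose enzyme starts the route to phytate, reached 2836 CPM against 622 CPM, 4.56-fold (4.49 to 4.64), and lost its call with plain CPM. The sucrose synthase gene was abundant at both stages, with 2353 CPM at early maturation against 1512 CPM. The raffinose synthase gene RS2 had 16.8 CPM against 9.53 CPM.

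Genes of pigment and isoflavone synthesis mostly stayed within 4-fold. Of 8 measured members 1 was called higher and none lower, with a median log2 ratio of 0.37. The called gene was the isoflavone synthase IFS2, with 55.9 CPM at early maturation against 4.13 CPM at the cotyledon stage, 13.5-fold higher (11.2 to 16.5). The anthocyanidin reductase gene ANR-b, a seed coat gene of proanthocyanidin synthesis, had 315 CPM against 443 CPM, a ratio of 0.711 (0.693 to 0.730). The dihydroflavonol reductase gene DFR1 had 553 CPM against 345 CPM, a ratio of 1.60 (1.56 to 1.64). Of the 4 measured genes in the vegetative list, VspA alone was called, 6.17-fold higher (4.78 to 8.09), and the Rubisco small subunit genes RbcS-b and RbcS-c had 6.49 and 5.64 CPM at early maturation against 3.71 and 3.74 CPM. In all, 34 of the 69 measured listed loci were among the higher genes and none was among the lower genes. Of all measured genes 1.91% were higher and 1.44% lower, so for 69 loci the absence of lower genes is near the background. The lists were chosen with earlier results of these data known.

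**Figure D3:**
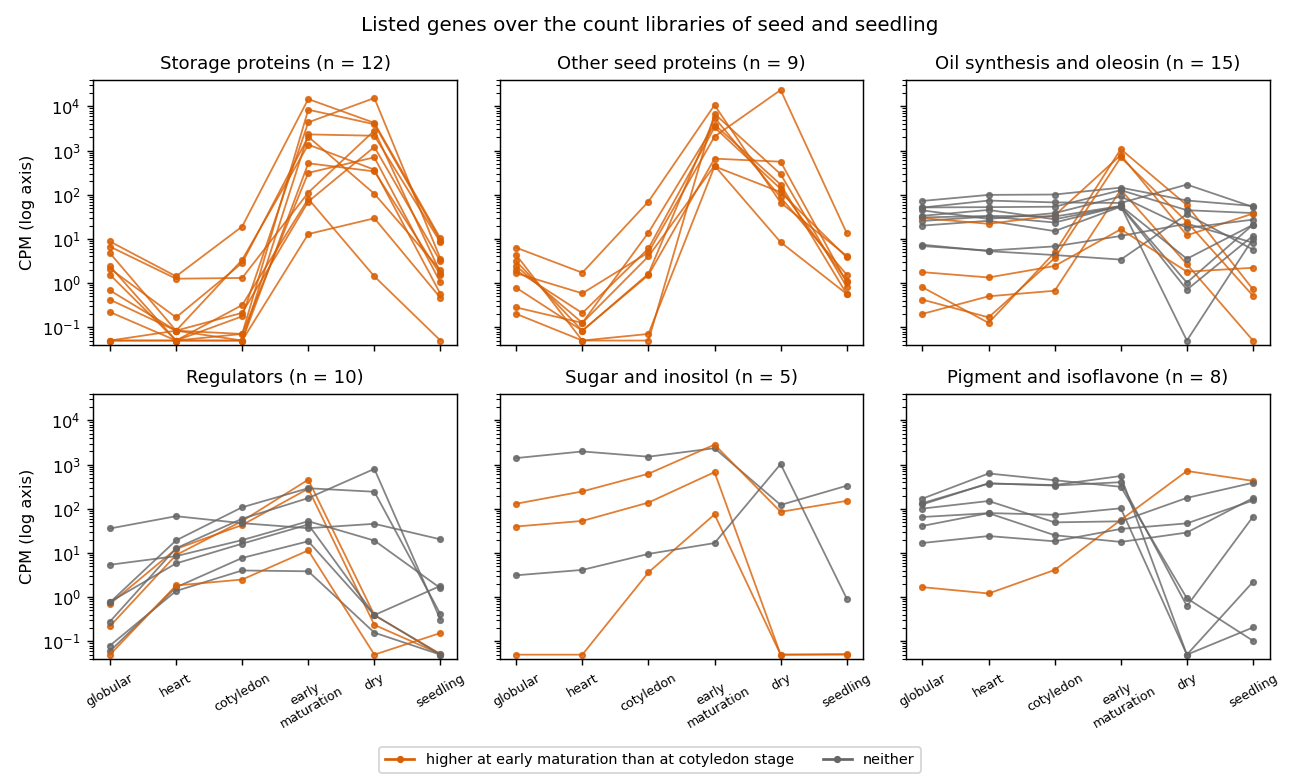
CPM (log axis, values under 0.05 drawn at 0.05) of the measured genes of 6 lists in the count libraries of globular, heart, cotyledon, early-maturation and dry seed and of the seedling; each line is a gene, orange where it was called higher at early maturation than at the cotyledon stage and grey where it was not called. All 12 storage genes and all 9 other seed protein genes are orange.

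Before the cotyledon stage the 617 higher genes were low, with medians of 1.93 CPM in globular-stage and 2.22 CPM in heart-stage seed. In the step before, 66 of the 617 were called higher in cotyledon-stage than in heart-stage seed and none lower, where 0.547% of all genes measured in that step were called higher and 0.116% lower. This step shares the cotyledon library with the comparison that chose the genes. The LEC1 and ABI3 homologs had begun their climb by then: LEC1-a stood at 0.702, 12.3, 43.0 and 285 CPM in globular, heart, cotyledon and early-maturation seed, and ABI3-a at 0.762, 19.3, 108 and 292 CPM. Of the 12 measured storage genes, 10 had a lower CPM in heart than in globular seed. Whether this reflects a change in the seeds was not tested. Gy1 had 4.76 CPM in globular seed, 0.0837 CPM in heart seed and 0.0706 CPM in cotyledon seed. A set of 31 genes had at least 200 CPM at early maturation and at most 0.5 CPM in heart seed. Of these, 27 had more CPM in globular than in heart seed. The limit on the heart level favours this direction by itself, so the count of 27 does not test for a fall. The share that the globular level made of the early-maturation level differed between members. LOX1 had 0.782 CPM in globular seed for 655 CPM at early maturation, and KTI1 had 0.201 CPM for 438 CPM. The median was 6.04 CPM for each 10000 CPM, with quartiles of 5.42 and 7.20. What share of the globular counts this may account for was not tested.

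The 2 sets also differed in where else they were expressed. Of the higher genes, 80 (13.0%) were under 1 CPM in all 5 other organs, beside 3.43% of the lower genes and 2.50% of all measured genes. These 80 had a median of 55.0 CPM at early maturation against 4.06 CPM at the cotyledon stage, and 9 of them are listed loci. In some other organ 258 of the 617 (41.8%) had a higher level than at early maturation. Of all measured genes, 64% had a higher level in some other organ than in either of the 2 seed libraries, and of the lower genes 67.2%. Among the 10 libraries, 271 higher genes peaked at early maturation, 129 in leaf, 101 in dry seed and 52 in stem. The share that peaked at early maturation is raised by the choice of the genes. Dry seed was the peak of 16.4% of them and stem of 8.43%, beside 26.7% and 9.45% of all measured genes. The 129 that peaked in leaf had medians of 33.3 CPM at early maturation against 5.54 CPM at the cotyledon stage, with 168 CPM in leaf, 62.7 CPM in seedling and 0.937 CPM in root. Leaf was the peak of 20.9% of the higher genes, beside 13.6% of all measured genes and 2.58% of the lower genes.

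Of the 466 lower genes, 109 peaked in root, 83 in heart-stage seed, 68 in stem and 47 in globular-stage seed. Heart-stage seed was the peak of 17.8%, stem of 14.6% and globular-stage seed of 10.1%, beside 8.63%, 9.45% and 11.8% of all measured genes. Root was the peak of 23.4% of them, beside 8.16% of all measured genes and 1.78% of the higher genes. The 109 had medians of 3.86 CPM at early maturation against 23.5 CPM at the cotyledon stage, with 138 CPM in root and 2.33 CPM in leaf. Counting the globular, heart and cotyledon libraries together, 174 lower genes (37.3%) peaked in young seeds, beside 23.6% of all measured genes. These had medians of 29.6, 40.7, 30.1 and 4.69 CPM in globular, heart, cotyledon and early-maturation seed, and 62 of them had no count in dry seed. The share that peaked in young seeds is raised by the choice of the genes. None of the 466 could peak at early maturation, where 9.67% of all measured genes did. The cotyledon library, in which they were chosen as high, was the peak of 9.44% of them, beside 3.20% of all measured genes.

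**Figure D4:**
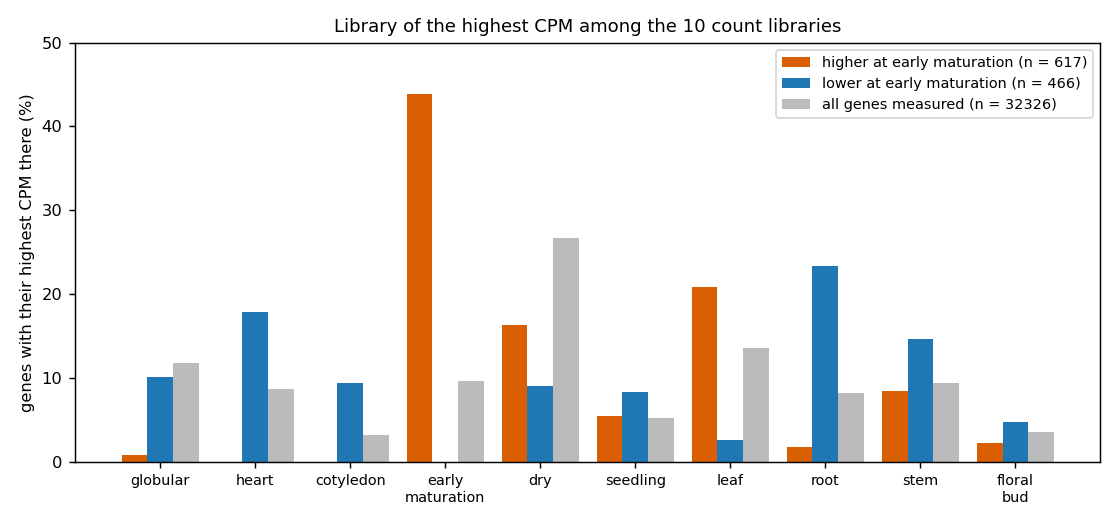
Bars give the percentage of genes that had their highest CPM in each of the 10 count libraries, for the 617 genes higher at early maturation, the 466 lower genes and the 32326 measured genes. Leaf is the peak of 20.9% of the higher and 2.58% of the lower genes, and root of 1.78% of the higher and 23.4% of the lower genes.

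The steepest falls were in gene models that no table used here names. Glyma07g04010 on chromosome 7 had 4 counts at early maturation against 720 at the cotyledon stage, or 0.113 CPM against 25.4 CPM, 224-fold lower (87.2 to 825). It had 50.7 CPM in globular and 46.2 CPM in heart seed, no count in dry seed and 176 CPM in seedling. Glyma09g33480 on chromosome 9 had 2.01 CPM at early maturation against 212 CPM at the cotyledon stage, 105-fold lower (83.2 to 135). Its level was 443 CPM in globular and 1025 CPM in heart seed, and 0.157 CPM in dry seed. Glyma07g04010 stood at 100 CPM or more in seedling, root, stem and floral bud, whereas the peak of Glyma09g33480 was in heart-stage seed. The largest fall in abundance among called genes came to a gene model on chromosome 9 with 898 CPM at early maturation against 3769 CPM at the cotyledon stage.

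Called genes lay next to each other more often than measured genes in general. In the order of the gene identifiers along the chromosomes, 32 of 616 higher genes (5.19%) had a higher gene directly beside them, where 2.14% of measured genes had. Of 465 lower genes, 32 (6.88%) had a lower gene beside them, where 1.54% of measured genes had. There were 16 adjacent couples of higher genes, 16 of lower genes and 7 of opposite direction, the 2 lipoxygenase couples among these 7. Gy2 beside Gy1 and LOX2 beside LOX1 are examples of higher couples. Reads shared by near-identical neighbours were not separated.

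The later fate of the genes was read first from libraries that had no part in choosing them. In the mid- and late-maturation libraries the values are RPKM, reads scaled by gene length and by library size, and these form a batch of their own, sequenced and processed apart from the count libraries. The deposited values implied 59.5 M reads at mid maturation and 104 M at late maturation. They were therefore compared only with each other, with a call where log2(RPKM + 0.5) differed by 4-fold and the higher value reached 5 RPKM. On this scale the change of low genes is understated. Of the 617 higher genes 555 were listed there, and 242 of these (43.6%) were lower and 44 (7.93%) higher at late than at mid maturation. Of all 44202 genes listed, 4.36% were lower and 6.47% higher, and of those with a mean of at least 1 RPKM, 7.35% and 10.9%. The 555 genes made up 24.8% of the summed RPKM at late maturation, against 58.6% at mid maturation. Their median was 1.07 RPKM at late maturation against 16.6 RPKM at mid maturation.

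**Figure D5:**
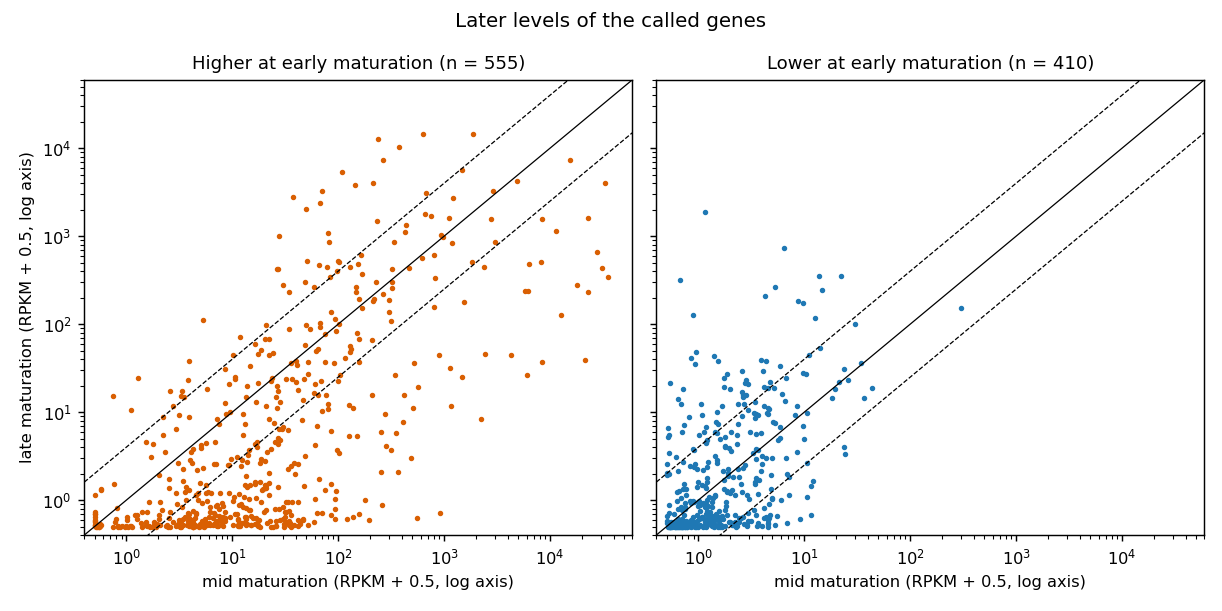
RPKM + 0.5 at late maturation (vertical) against mid maturation (horizontal), both on log axes, for the 555 genes higher (left) and the 410 genes lower (right) at early maturation that were listed in either library. Dashed lines mark 4-fold differences. With a call, 242 of the 555 and 12 of the 410 lie lower at late maturation. A lower call needed 5 RPKM at mid maturation, where the medians were 16.6 RPKM for the 555 and 0.935 RPKM for the 410. Most of the 410 could thus not be called lower, so these counts do not compare the later fate of the sets.

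Storage transcripts were much lower at late than at mid maturation. Of 13 listed storage genes with a mean of at least 1 RPKM, 11 were called lower at late maturation and none higher, and of 8 other seed protein genes 7 were lower and none higher. KTI3, listed there under another identifier and not among the 8, was also called lower, with 68.9 RPKM against 20181 RPKM. The gene 2S-a had 343 RPKM at late maturation against 35524 RPKM at mid maturation, Gy2 had 3976 RPKM against 32999 RPKM, and Gy4 had 434 RPKM against 31302 RPKM. P34 had 38.5 RPKM against 21483 RPKM, the largest difference of these genes on the log2 scale, at -9.11. The beta subunit genes of beta-conglycinin, nearly absent at early maturation, were present here, with 17.8 and 21.7 RPKM at late maturation against 394 and 375 RPKM at mid maturation. Genes that were not called lower included LOX3, with 7252 RPKM at late maturation against 15473 RPKM, SBP2, with 507 RPKM against 1824 RPKM, and BG7S, with 869 RPKM against 3056 RPKM.

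Oil genes and regulators fell in part. Of 15 oil genes 9 were lower and none higher at late than at mid maturation, the oleosin with 24.8 RPKM against 1483 RPKM and FAD2-1B with 43.9 RPKM against 901 RPKM. Of 9 regulators 4 were lower and none higher. LEC1-b had 1.23 RPKM at late maturation against 65.5 RPKM at mid maturation, while ABI3-a had 117 RPKM against 146 RPKM. SWEET10b had 0.192 RPKM at late maturation against 157 RPKM at mid maturation. The raffinose synthase RS2, whose product accumulates as seeds acquire desiccation tolerance, had 293 RPKM against 12.6 RPKM and was called higher. In the pigment and isoflavone list 3 genes were higher and 1 lower. IFS2 was among the higher ones with 343 RPKM against 83.0 RPKM, as was the chalcone synthase CHS7 with 79.5 RPKM against 9.28 RPKM.

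Of the 466 lower genes, 410 were listed in the RPKM libraries, with a median of 0.487 RPKM at late maturation against 0.935 RPKM at mid maturation. The medians over all listed genes were 1.21 RPKM at late maturation and 1.59 RPKM at mid maturation. At late maturation 57 of the 410 (13.9%) were higher and 12 (2.93%) lower than at mid maturation. Of all listed genes 6.47% were higher and 4.36% lower. Only 210 of the 410 had a mean of at least 1 RPKM, and with the minimum of 5 RPKM all called genes were among them. Of all listed genes with that mean, 10.9% were higher and 7.35% lower. The 57 rises are thus a larger share of the 210 than the 10.9%. Rises were unevenly spread over the set: of the 39 listed genes whose count peak was in dry seed 26 were higher at late maturation, and of the 138 listed genes whose peak was in young seeds 4 were. Among the genes higher at early maturation, 90 listed genes peaked in dry seed, and 34 of these were higher at late maturation. The same split was not made over all listed genes, so it is not read as a trait of the lower genes.

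In the dry seed, a library with counts, the levels can be set beside early maturation directly, but the comparison shares the early-maturation library with the one that chose the genes. The TMM factor was 0.591 for dry seed and 0.923 for early maturation. Each ratio of dry seed over early maturation is therefore smaller with plain CPM, and the counting intervals do not cover this. The 617 higher genes had a median of 1.89 CPM in dry seed against 44.2 CPM at early maturation. Of these, 407 (66.0%) were called lower and 62 (10.0%) higher in dry seed, where 17.9% and 13.7% of all genes measured in that step were, and 110 (17.8%) had no count in dry seed, beside 6.52% of all genes. The 466 lower genes had a median of 0.747 CPM in dry seed against 4.28 CPM at early maturation, with 64 called lower (13.7%), 87 called higher (18.7%) and 104 at no count (22.3%). Over all genes measured in that step, 17.9% were called lower and 13.7% higher. A lower call needed 10 CPM at early maturation, above the median of the lower genes, so most of them could not be called lower. Their median log2 ratio, dry seed over early maturation, was -2.20, beside -0.288 over all genes measured in that step. No count in dry seed was found for 22.3% of them, beside 6.52% of all genes. Of the lower genes 68 (14.6%) stood at or above their cotyledon level, beside 47.0% of all genes measured in that step. The lower genes were chosen as high in the cotyledon library, which lowers this share by itself. Since the higher genes were taken as high in the shared library and the lower genes as low in it, these counts are descriptions. Of the 555 higher genes with RPKM, 220 (39.6%) were called lower both at late over mid maturation and in dry seed over early maturation, and 33 (5.95%) were called higher in both. Of the 27513 genes measured in the dry seed step and listed with RPKM, 5.36% were lower in both and 6.00% higher in both, so the share higher in both is that of the background.

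Among the storage genes the level in dry seed set the members apart. Gy2 had 15406 CPM in dry seed against 4345 CPM at early maturation, 3.55-fold higher (3.52 to 3.57), while Gy1 had 3932 CPM against 8383 CPM, 2.13-fold lower (2.11 to 2.15). SBP2 had 2828 CPM in dry seed against 112 CPM at early maturation, 25.3-fold higher (24.5 to 26.2). Its relative SBP1 had 105 CPM against 2050 CPM, 19.5-fold lower (18.5 to 20.6). BG7S had 1205 CPM against 69.8 CPM, 17.3-fold higher (16.5 to 18.0). LOX3 had 23419 CPM against 2070 CPM, 11.3-fold higher (11.2 to 11.4), whereas LOX2 had 135 CPM against 3345 CPM, 24.7-fold lower (23.5 to 25.9). KTI3 had 66.2 CPM against 10681 CPM, 161-fold lower (151 to 173). Of the 14 storage genes measured in this step, 4 were called higher and 2 lower, and of the 9 other seed protein genes 1 was higher and 6 lower.

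The regulators differed among themselves in dry seed, and both sugar exporters were without counts there. LEC1-a had 0.236 CPM in dry seed, from 3 counts, against 285 CPM at early maturation, and LEC1-b had 0.393 CPM against 457 CPM. ABI3-a had 243 CPM in dry seed against 292 CPM, and ABI3-b had 801 CPM against 175 CPM, 4.58-fold higher (4.43 to 4.72). The fold of ABI3-b came from 10180 counts in dry seed and 6173 at early maturation, and it is smaller with plain CPM. Neither SWEET10 gene had a count in dry seed. Set against 3 counts in the dry library, SWEET10a was 317-fold lower and SWEET10b 2867-fold lower. The lower limits of the counting intervals for these falls were 257-fold and 2331-fold. IFS2 had 718 CPM in dry seed against 55.9 CPM at early maturation, 12.8-fold higher (12.2 to 13.5).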

How the data were processed

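Libraries were single-end reads of polyadenylated RNA, per the labels' protocols. For 10 libraries the authors deposited the raw count of reads mapped to each gene model, with reads aligned by Bowtie, per the submitters' processing notes. For mid and late maturation the authors deposited RPKM for genes above 0, with Bowtie and bedtools named in those notes, and a gene not listed was taken as 0. Tool versions, genome build, strandedness and how multiply matching reads were treated are not given here in the sources.

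Counts were scaled with TMM factors over the 10 libraries (edgeR 4.0.16, R 4.3.3) and analysed with scipy 1.17.1, pandas 2.3.3 and numpy 2.4.6 under Python 3.11.15, and figures were drawn with matplotlib 3.10.9. A call needed 4-fold and 10 CPM in the higher library, with a floor of 3 counts per library. Folds carry exact (Clopper-Pearson) 95% intervals of the conditional binomial for the 2 counts. The intervals reflect the counting error of reads alone, and PCR copies of a molecule are counted as separate reads. The floor is a fixed setting and measures no error. DESeq2 1.42.0 served for alternative size factors alone. Calling and the recovery of depth from RPKM were tested on simulated data.

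Of the identifiers none matched the gene table used here (Glycine_max_v4.0, 59048 genes), so names are published locus assignments. Of 77 listed names, 60 have a symbol in that table, and all 60 lie on the chromosome given in the identifier. Lists by gene description were not applied for the same reason. The rule named every listed locus and the 2 gene models with the largest rises (Gy1 and P34) and falls. The members and lists were chosen with earlier results of these data known, and the locus of LE1 was corrected after its values had been seen. KTI3 carries different identifiers in the count and RPKM libraries.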

Additional observations from a re-analysis of the deposited data

How the results depend on the processing

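The 617 higher and 466 lower genes depended on the scaling. Plain CPM, which lowers the median log2 ratio of all measured genes by 0.28 to -0.27, gave 450 higher and 713 lower genes, so that the share of calls that were higher was 38.7% in place of 57.0%. Leaving out the 10 most abundant genes of either library gave 487 and 682 (41.7% higher). DESeq2 size factors gave 605 and 461, and TMM factors from the 2 libraries alone 629 and 467. Under all 5 scalings 450 genes were called higher and 453 lower. Thresholds moved the counts by their construction: a 2-fold threshold gave 2188 higher and 2042 lower genes, 8-fold 258 and 131, a minimum of 1 CPM 1294 and 1126, and a minimum of 50 CPM 288 and 127. A floor of 1 count or no filter on the mean gave 617 and 466. With plain CPM the median of the sugar list was 1.91, under the log2 of 4-fold, and WRI1-b and the myo-inositol-phosphate synthase homolog fell under 4-fold, both at 1.91. The other 67 named genes with a ratio kept their call in early maturation over cotyledon with plain CPM, and all 69 with DESeq2 size factors. Calls of single named genes in dry seed over early maturation were not repeated with other scalings. Counts of later fate stayed within 1.5 times under the alternatives run: with RPKM rescaled by the median ratio (0.48 on the log2 scale), 260 higher genes were lower and 32 higher at late maturation, where 5.44% and 4.01% of all genes were. No paired analysis was possible because each stage has 1 library. Depth limited genes near 3 counts, and no library could be left out.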

Other observations

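The isoflavone synthase locus IFS1 had no count in any of the 10 count libraries, and 130 RPKM at late maturation against 36.4 RPKM at mid maturation. Its relative IFS2 had counts in all 10 libraries. The count and RPKM libraries were processed separately, and the part of that in the difference was not tested.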
